A study of Mus musculus with 18 samples.

Results

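Transforming growth factor beta (TGF-beta) ligands, their receptors, a matrix protein of the latent TGF-beta binding family and genes of the CCN family were followed in mouse livers of 3 mutant lines. The 9 genes were taken by name: the ligands Tgfb1, Tgfb2 and Tgfb3, the receptors Tgfbr1 and Tgfbr2, the matrix gene Ltbp2, and Ccn1, Ccn2 and Ccn5. All 9 had a probe on the array, 10 probes of 41174 in all, and all 9 were among the 17721 genes tested. The mutants were Nrf1 CKO (Nrf1(dN/-)::Alb-Cre), Nrf2 KO (Nrf2(-/-)) and Keap1 KD (Keap1(Kd/-)), and each was set against its own genetic control, Nrf1 Control (Nrf1(dN/+)), Nrf2 Control (Nrf2(+/+)) and Keap1 Control (Keap1(Kd/+)). The Nrf1 Control mice thus carry the dN allele and the Keap1 Control mice the Kd allele, each over a wild-type copy. All mice were female and aged 6 weeks. The strain is given as Mixed for the Nrf1 and Keap1 lines and as C57BL/6 for the Nrf2 line. Each of the 6 groups held 3 samples, and 1 single-colour array was read per sample, 18 in all. The Alb promoter drives Cre in hepatocytes, and the Nrf1 CKO genotype as written also holds a - allele that Nrf1 Control lacks. The Nrf1 level of the other liver cells was not measured here. Whether each sample of a group is a different mouse is not said in the labels, so the p-values cover variation among samples that could be purely technical.

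TGF-beta ligands are secreted in a latent form that is held in the extracellular matrix and released by integrins and proteases. The free ligand binds the type II receptor, which recruits and phosphorylates the type I receptor, and this in turn activates SMAD transcription factors. In the liver the pathway is known for driving hepatic stellate cells, the vitamin A-storing pericytes of the sinusoids, towards collagen-producing myofibroblasts. CCN proteins are secreted matricellular proteins, and Ccn1 and Ccn2 are widely used readouts of the YAP and TAZ coactivators, while Ccn2 is also a classical TGF-beta target. NRF1 (gene Nfe2l1) and NRF2 (Nfe2l2) are transcription factors of 1 family that bind antioxidant response elements, and KEAP1 marks NRF2 for degradation.

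The promoters of 3 members are shown because they are the members called higher in Nrf1 CKO livers for which RefSeq's table held a promoter. Each run covers 250 bases before the transcription start and 50 bases from it on, 300 in all, from RefSeq on build GRCm38.p6, written 5′ to 3′ on the gene's strand. Capitals mark the matches of 5 motifs searched on both strands: TGACNNNGC (the core of the antioxidant response element), GGAATG (TEAD factors, the partners of YAP and TAZ), CAGAC (SMAD), TGACTCA (AP-1, which can overlap the first motif) and, for the core promoter box, TATAAA. Ccn1 lies at chr3:145649936-145650235 (minus strand), Tgfbr2 at chr9:116175314-116175613 (minus strand) and Ltbp2 at chr12:84876442-84876741 (minus strand).
Ccn1: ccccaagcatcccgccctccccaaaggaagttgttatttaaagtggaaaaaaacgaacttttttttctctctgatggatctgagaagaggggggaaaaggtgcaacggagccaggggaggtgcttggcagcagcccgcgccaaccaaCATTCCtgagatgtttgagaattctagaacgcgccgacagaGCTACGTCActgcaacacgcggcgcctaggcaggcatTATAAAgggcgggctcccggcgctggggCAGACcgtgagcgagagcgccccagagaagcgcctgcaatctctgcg
Tgfbr2: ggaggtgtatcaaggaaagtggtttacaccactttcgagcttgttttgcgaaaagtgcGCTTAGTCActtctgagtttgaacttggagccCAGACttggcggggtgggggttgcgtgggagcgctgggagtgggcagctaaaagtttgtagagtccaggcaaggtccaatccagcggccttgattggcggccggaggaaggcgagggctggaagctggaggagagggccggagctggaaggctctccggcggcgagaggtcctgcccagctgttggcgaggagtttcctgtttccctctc
Ltbp2: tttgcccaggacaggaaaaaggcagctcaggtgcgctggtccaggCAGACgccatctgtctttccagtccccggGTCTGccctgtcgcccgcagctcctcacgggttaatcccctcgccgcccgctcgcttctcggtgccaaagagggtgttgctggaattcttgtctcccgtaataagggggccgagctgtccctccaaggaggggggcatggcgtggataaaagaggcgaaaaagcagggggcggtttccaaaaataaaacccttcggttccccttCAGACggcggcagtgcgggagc
In the Ccn1 promoter the antioxidant response element core begins 62 bases before the start on the opposite strand, a TEAD match 103 bases before it on the opposite strand, a TATA box 25 bases before it, and a SMAD match at base 4 after it. The Tgfbr2 promoter holds the response element core on the opposite strand 192 bases before the start and a SMAD match 160 bases before it, and the Ltbp2 promoter holds 3 SMAD matches and none of the other motifs. RefSeq had promoters for 6 of the 9 members, 7 windows in all (Tgfb1, Tgfb2, Tgfbr1 with 2, Tgfbr2, Ltbp2 and Ccn1). Over the 32851 promoters of this length, 12.39% held the response element core, 14.66% the TEAD motif, 49.59% the SMAD motif, 5.2% the AP-1 motif and 13.62% the TATA box. A match of these letters is a description of the sequence and not a binding site.

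Levels are log2 signals set against the 75th percentile of the same array, so that a difference of 1 is a doubling, and a level can only be compared between arrays for 1 probe, not between probes. A gene is called where limma's p, adjusted over all 17721 genes, was under 0.05. In the lines named for them, Nfe2l1 lay between −6.67 and −6.33 on the Nrf1 CKO arrays against 3.59 to 3.93 in Nrf1 Control, Nfe2l2 between −5.90 and −3.16 in Nrf2 KO against 3.13 to 3.52 in Nrf2 Control, and Keap1 between 1.75 and 1.87 in Keap1 KD against 3.28 to 4.81 in Keap1 Control. The labels do not place these probes inside or outside the deleted exons. All 12 hepatocyte markers with a probe were well above background on all 18 arrays. Well above background were 57.54% to 60.12% of the spots on Nrf1 CKO arrays against 52.32% to 54.69% on Nrf1 Control arrays, and 49.95% to 65.04% over all arrays. With 3 arrays a group, their number sets how precise each value is.

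In Nrf1 CKO livers the ligand Tgfb3 was higher than in Nrf1 Control, while Tgfb1 and Tgfb2 did not pass the test. The 3 ligands share their receptors; TGFB1 is the form most studied in liver scarring, and TGFB2 and TGFB3 are best known from development and wound repair. Tgfb3 stood at −1.005, −0.53 and −0.25 on the CKO arrays against −1.83, −1.28 and −1.50 on the control arrays. All 3 CKO arrays lay above all 3 controls, with a log2 fold change of 0.94 (SE 0.28, limma adjusted p = 0.0326, 1.92-fold). Tgfb2 stood at −4.02, −3.02 and −3.23 on the CKO arrays against −4.52, −4.12 and −4.18 on the control arrays, of which the lowest was not well above background. Its groups did not overlap either, but its log2 fold change of 0.85 (SE 0.30, limma adjusted p = 0.0586) missed the threshold of 0.05. Tgfb2 was called without Nrf1 CKO 1 (1.15, adjusted p = 0.0134). Tgfb1 stood at −0.96, −0.08 and −0.35 on the CKO arrays against −1.18, −0.81 and −1.24 on the control arrays. Nrf1 CKO 1 lay within the range of the controls, and the log2 fold change was 0.61 (95% interval −0.04 to 1.26, limma adjusted p = 0.167). The Tgfb1 probe is printed in 10 spots, and its spots on 1 array had an SD of 0.03 to 0.10 on the log2 scale, against SDs between the 3 arrays of a group of 0.21 to 0.56. The Tgfb3 call was lost without Nrf1 Control 1 (0.80, adjusted p = 0.134), Nrf1 Control 3 (0.96, adjusted p = 0.0567), Nrf1 CKO 2 (0.91, adjusted p = 0.103) or Nrf1 CKO 3 (0.77, adjusted p = 0.151). In whole liver RNA, more cells of a type and more RNA per cell cannot be told apart.

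Of the receptors, the type II receptor Tgfbr2 was higher in Nrf1 CKO livers and the type I receptor Tgfbr1 was not called. Tgfbr2 stood at 2.74, 3.08 and 3.11 on the CKO arrays against 2.07, 2.26 and 1.66 on the Nrf1 Control arrays. The CKO arrays were the 3 highest of all 18 arrays, and the next, an Nrf2 Control array, was at 2.39. The log2 fold change of Tgfbr2 was 0.98 (SE 0.24, limma adjusted p = 0.0134, 1.97-fold). The call was lost without Nrf1 CKO 2 (0.93, adjusted p = 0.0586) or Nrf1 CKO 3 (0.91, adjusted p = 0.068). Tgfbr1 stood at 1.06, 1.14 and 1.04 on the CKO arrays against 0.66, 0.56 and 1.31 on the control arrays, so that the groups overlapped. Its log2 fold change was 0.24 (95% interval −0.39 to 0.86, limma adjusted p = 0.607). A second Tgfbr1 probe was well above background on 3 of the 18 arrays, 1 each of Nrf1 CKO, Nrf2 KO and Keap1 Control, and was not tested.

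Ltbp2 codes for a matrix protein of the latent TGF-beta binding family that, unlike its relatives, is not known to bind the latent ligand and is found on elastic microfibrils. It was higher in Nrf1 CKO livers, at −1.09, 0.49 and −0.29, against −1.75, −1.16 and −1.79 in Nrf1 Control. Nrf1 CKO 1 lay just above the highest Nrf1 Control array and just below 1 Nrf2 Control array, at −1.08, while Nrf1 CKO 2 was the highest of all 18 arrays. The log2 fold change was 1.27 (SE 0.31, limma adjusted p = 0.0136, 2.41-fold). Without Nrf1 Control 1 it was 1.18 (adjusted p = 0.0613), without Nrf1 CKO 2 it was 0.88 (adjusted p = 0.07), and without Nrf1 CKO 3 it was 1.27 (adjusted p = 0.0575), so that each of these left it uncalled.

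Of the CCN genes, Ccn1 and Ccn5 were higher in Nrf1 CKO livers and Ccn2 was not. Ccn1, an immediate-early gene whose product binds integrins, stood at 0.70, 1.62 and 1.54 on the CKO arrays against −0.42, −0.88 and −0.65 on the Nrf1 Control arrays. The CKO arrays were the 3 highest of all 18 arrays, and the log2 fold change was 1.94 (SE 0.24, limma adjusted p = 0.00035, 3.83-fold). Leaving out any 1 array of the line kept Ccn1 called, with log2 fold changes of 1.77 to 2.23. Ccn5, a CCN protein that lacks the C-terminal domain of its relatives and is made by fibroblasts and smooth muscle cells, stood at −2.59, 1.44 and 0.56 on the CKO arrays. All 3 were well above background, while the control arrays, at −6.20, −4.49 and −5.17, were not. From the group means, Ccn5 was at least 20.4-fold higher in Nrf1 CKO, a bound that carries no interval. The limma adjusted p of 0.00145 belongs to the fitted log2 fold change of 5.09 (95% interval 3.4 to 6.8) and not to the bound. Ccn5 passed the background filter through Nrf1 CKO alone, the group where it is high, so its place among the genes tested rests on that level. It was also called with no background filter (adjusted p = 0.004). The bound was 11.6-fold without Nrf1 CKO 2, 15.7-fold without Nrf1 CKO 3 and 46.8-fold without Nrf1 CKO 1. This bound sets each control array at the higher of its own signal and its lowest signal above background, and the fitted log2 fold change of 5.09 rests on control values below background. The fitted value was 4.27 to 6.29 when 1 array of the line was left out. With normexp background correction it was 2.21, and the offset of 50 in that setting shrinks fold changes of dim probes. The CKO arrays spread widely, with an SD of 2.12, and Nrf1 CKO 1 lay far below the other two. Ccn2 stood at 2.78, 2.98 and 3.49 on the CKO arrays against 2.50, 3.39 and 3.29 on the control arrays, and its log2 fold change was 0.02 (95% interval −0.55 to 0.60, limma adjusted p = 0.959; −0.07 with arrays scaled to their median). The Ccn2 interval excludes a change as large as that fitted for Ccn1. All 6 arrays of the Nrf1 line lay above the 12 arrays of the other lines for Ccn2, of which the highest was at 2.38, and the Nrf1 arrays were all read on a scan day that held no other line, so that line and day cannot be told apart.

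**Figure D1:**
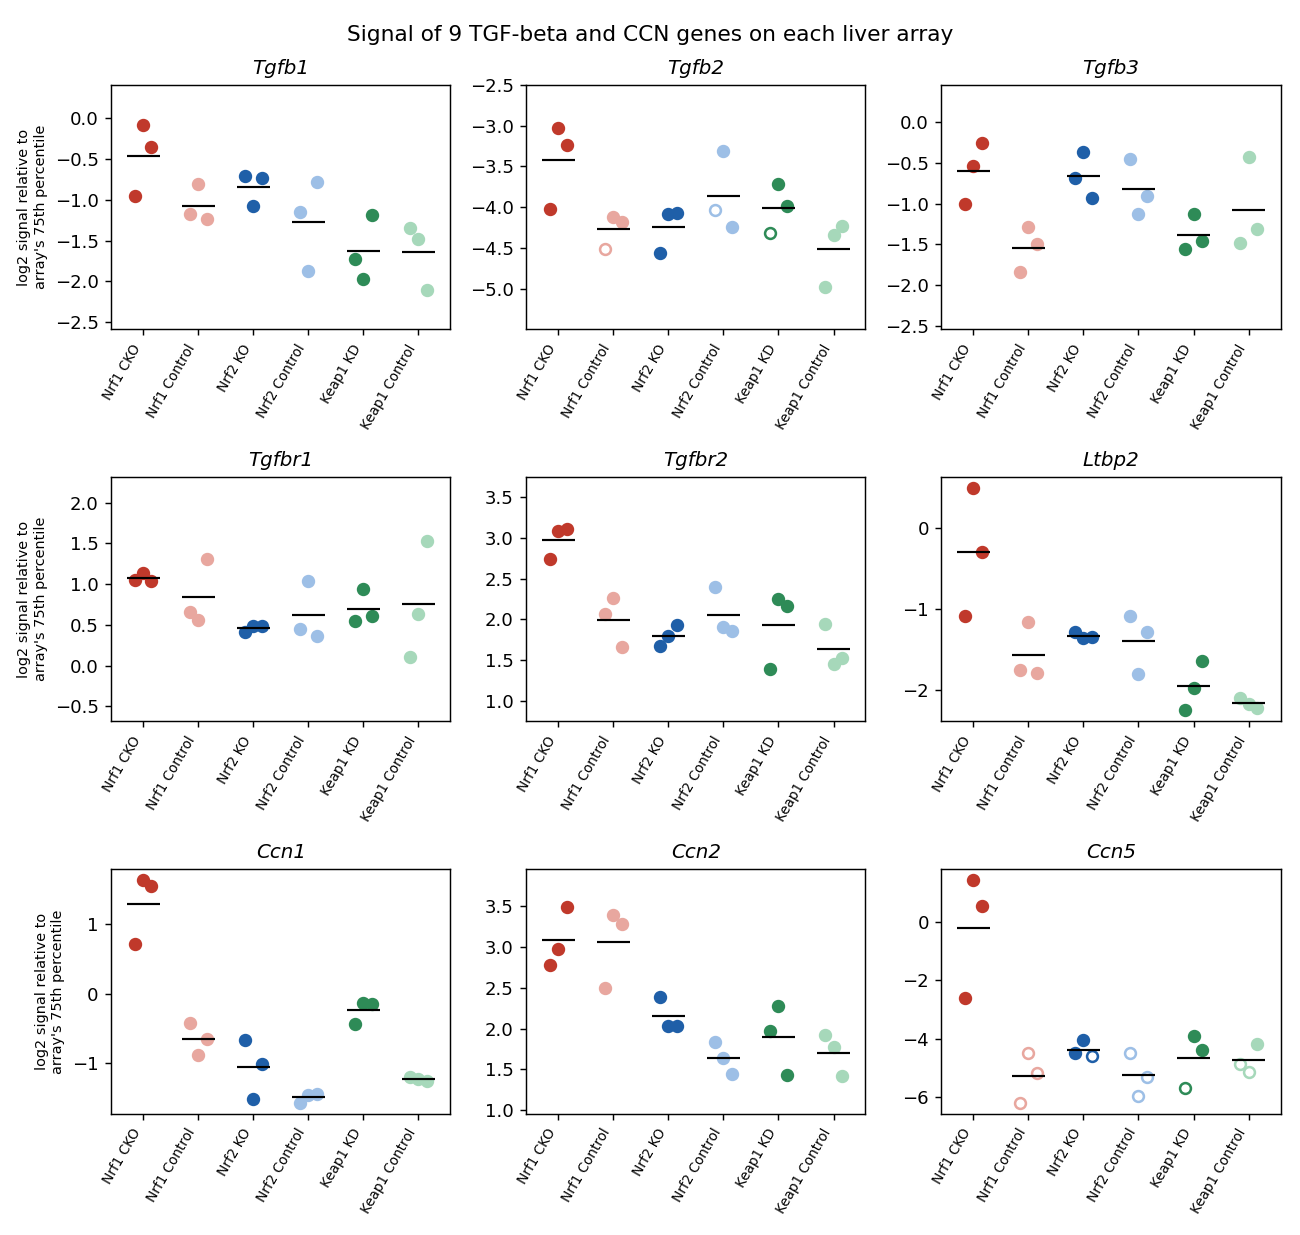
Signal of each gene on each array, in log2 units against the 75th percentile of that array, by group (1 point an array, 3 a group). Bars are group means, and open points are arrays on which the probe was not well above background. Nrf1 CKO has the highest mean for every gene, and for Ccn1, Tgfbr2, Ltbp2 and Ccn5 it does not overlap the group of next lower mean. For Ltbp2 its lowest array lies within the range of Nrf2 Control. Ccn2 is high in both groups of the Nrf1 line.

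Over all 9 members, 5 were called higher in Nrf1 CKO (Tgfb3, Tgfbr2, Ltbp2, Ccn1 and Ccn5) and 0 lower, where 18.9% of all genes tested were called, 7.99% higher and 10.9% lower. All 9 log2 fold changes were above 0, with a median of 0.94, against a median of −0.09 over all genes. The groups did not overlap for 6 of the 9, all with the CKO arrays higher, where 15.3% of all genes were so and 43.4% did not overlap in either direction. These counts include Ccn5, which entered the test through Nrf1 CKO alone, and the members were chosen with earlier results of these data known.

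**Figure D2:**
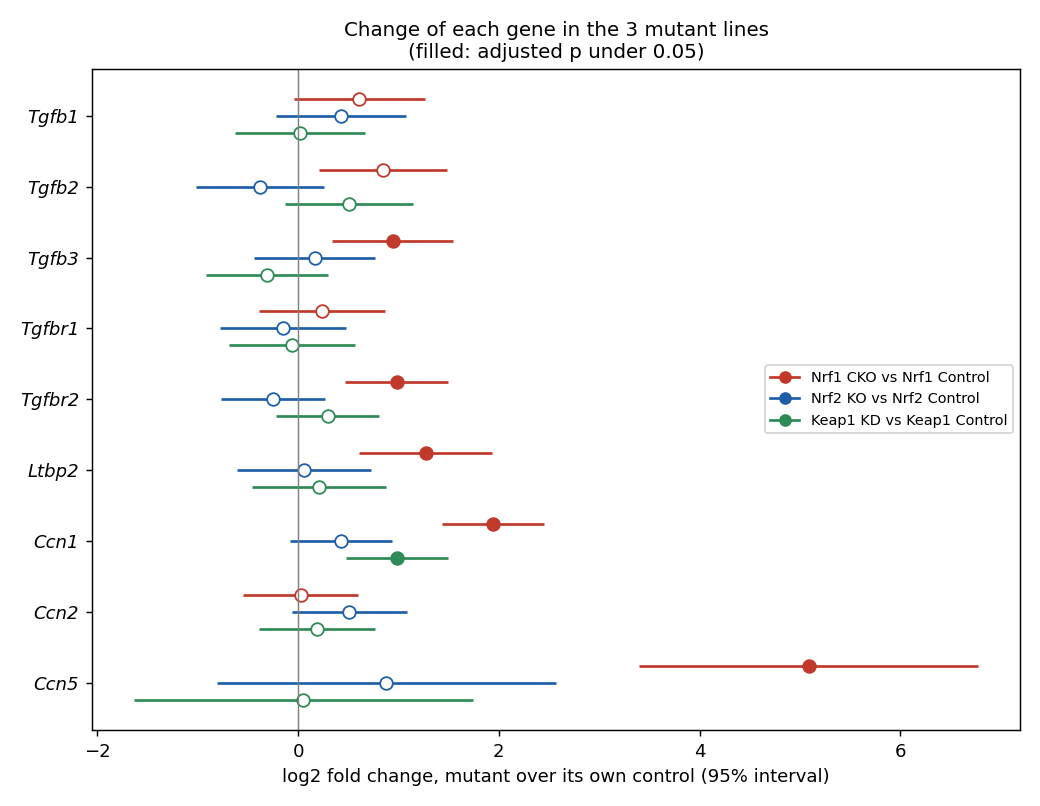
Log2 fold change of each gene in each mutant over its own control (x axis), with 95% intervals from the fit; filled points passed an adjusted p of 0.05. In Nrf1 CKO 5 of the 9 genes are filled, in Keap1 KD Ccn1 alone, and in Nrf2 KO none.

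The 3 Nrf1 CKO arrays did not move alike. Nrf1 CKO 1 was the lowest of the 3 for 8 of the 9 members, all but Tgfbr1. It was the lowest of the 3 for 33.6% of all genes and for 75% of the genes called higher in Nrf1 CKO, so that this was common among higher genes. The 75% includes the called members, and the 8 of 9 includes members that were not called. Relative to the mean of the controls, Ltbp2 was higher by 0.48 on Nrf1 CKO 1, by 2.06 on Nrf1 CKO 2 and by 1.28 on Nrf1 CKO 3. No control array measured Ccn5 above background, and against the floor used for its bound it was higher by at least 1.96 on Nrf1 CKO 1, 5.98 on Nrf1 CKO 2 and 5.11 on Nrf1 CKO 3.

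**Figure D3:**
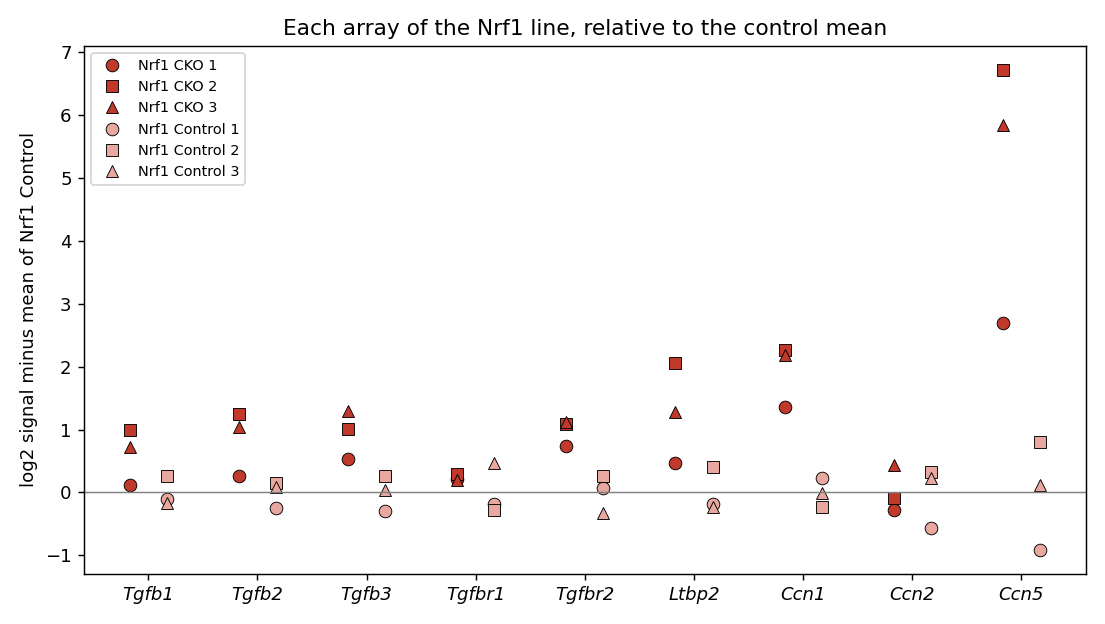
Log2 signal of each array of the Nrf1 line minus the mean of the 3 Nrf1 Control arrays (y axis), for each gene (x axis), with a marker shape for each replicate number. Nrf1 CKO 1 (circle) lies below the other CKO arrays for 8 of the 9 genes, and the control values of Ccn5 are below background.

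Slides divided the Nrf1 line unevenly: 1 slide held all 3 CKO arrays and Nrf1 Control 3, and another held Nrf1 Control 1 and 2. Within the shared slide, the mean of the CKO arrays exceeded the 1 control by 1.94 for Ccn1, 4.97 for Ccn5, 1.499 for Ltbp2, 1.32 for Tgfbr2, 0.90 for Tgfb3, 0.78 for Tgfb1 and 0.76 for Tgfb2, and lay below it by 0.23 for Tgfbr1 and by 0.21 for Ccn2. With slide as a block, which leaves 7 residual degrees of freedom, 0 of the 9 members were called (limma; Ccn1 at an adjusted p of 0.0663, Tgfbr2 at 0.144, Ccn5 at 0.148, Ltbp2 at 0.215 and Tgfb3 at 0.266), beside 65 of all genes. All Nrf1 arrays were read on 1 scan day.

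In Nrf2 KO livers 0 of the 9 members were called against Nrf2 Control (limma; 0 at an unadjusted p under 0.05), where 0.0621% of all genes were called, 11 in number (0.00564% higher and 0.0564% lower). Ccn2 was the 1 member whose groups did not overlap, where 20.8% of all genes did not overlap and 9.81% did so with the KO arrays higher: it stood at 2.38, 2.03 and 2.04 on the KO arrays against 1.83, 1.64 and 1.44 on the control arrays. All KO arrays lay above all controls, with a log2 fold change of 0.51 (95% interval −0.06 to 1.09, limma adjusted p = 0.62). Ccn1 stood at −0.66, −1.51 and −1.005 on the KO arrays against −1.56, −1.46 and −1.43 on the control arrays. The KO arrays were spread across and above the narrow control range, and the log2 fold change was 0.43 (95% interval −0.08 to 0.93). Ccn5 was well above background on 2 of the 3 KO arrays and on 0 of the 3 controls, at −4.48, −4.07 and −4.59 against −4.48, −5.96 and −5.33, so that the groups overlapped. Tgfbr2 was at 1.67, 1.80 and 1.93 on the KO arrays against 2.39, 1.90 and 1.85 on the control arrays (log2 fold change −0.25, 95% interval −0.76 to 0.26). The log2 fold changes of the other 5 members lay between −0.38 (Tgfb2) and 0.43 (Tgfb1). No slide and no scan day held arrays of both Nrf2 groups, so that batch and genotype cannot be told apart within this line.

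In Keap1 KD livers Ccn1 was higher than in Keap1 Control and the other 8 members were not called, where 5.52% of all genes were called, 0.948% higher and 4.58% lower. Ccn1 stood at −0.44, −0.13 and −0.15 on the KD arrays against −1.20, −1.22 and −1.26 on the control arrays. The groups lay clearly apart, with SDs of 0.17 in Keap1 KD and 0.03 in Keap1 Control, and Ccn1 was the 1 member whose groups did not overlap, where 17% of all genes did not and 5.55% did so with the KD arrays higher. The log2 fold change was 0.98 (SE 0.24, limma adjusted p = 0.0261, 1.98-fold). Within the 1 slide that held both groups, with 1 array of each, Ccn1 was higher in Keap1 KD by 1.11, and within the 1 scan day that did, with 1 KD and 2 control arrays, by 1.09. Leaving out any array of the line other than Keap1 KD 1 ended the call, with log2 fold changes of 0.928 to 0.997 and adjusted p of 0.0531 to 0.0873, as did slide (0.86, adjusted p = 0.351) or scan day as a block (0.82, adjusted p = 0.285).

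Tgfbr2 stood at 1.39, 2.25 and 2.17 on the Keap1 KD arrays against 1.94, 1.45 and 1.53 on the Keap1 Control arrays (log2 fold change 0.30, 95% interval −0.22 to 0.81). Keap1 KD 1 was the lowest of the 6 arrays and the other KD arrays the highest. Tgfb2 was at −4.32, −3.71 and −3.98 on the Keap1 KD arrays against −4.98, −4.35 and −4.23 on the Keap1 Control arrays, which overlapped, with a log2 fold change of 0.51 (limma adjusted p = 0.442). Ccn5 was well above background on 2 of the 3 KD arrays and 1 of the 3 control arrays, and its log2 fold change of 0.05 rests in part on values below background. The other members lay between −0.31 (Tgfb3) and 0.21 (Ltbp2), where arrays scaled to their median turned Tgfb3 to 0.0025 and Tgfbr1 to 0.25.

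The differences between the lines were tested as the effect in 1 line minus the effect in another, and 4 of 27 member differences were called. Ccn5 differed between Nrf1 CKO and Nrf2 KO by 4.21 (SE 1.12, limma adjusted p = 0.0412) and between Nrf1 CKO and Keap1 KD by 5.04 (SE 1.12, adjusted p = 0.0215). These Ccn5 sizes rest on control values below background and on a gene that entered the test through Nrf1 CKO alone. With no background filter only the Ccn5 difference from Keap1 KD was called (adjusted p = 0.0499), and that from Nrf2 KO was not (adjusted p = 0.0947). With normexp neither Ccn5 difference was called (2.11, limma adjusted p = 0.0652, from Nrf2 KO, and 2.19, adjusted p = 0.0668, from Keap1 KD). The normexp offset of 50 shrinks fold changes of dim probes. Ccn1 differed between Nrf1 CKO and Nrf2 KO by 1.51 (SE 0.34, limma adjusted p = 0.021), and Tgfbr2 by 1.23 (SE 0.34, adjusted p = 0.048). Of all genes 5.58% were called for Nrf1 minus Nrf2 (3.01% higher, 2.57% lower), 6.92% for Nrf1 minus Keap1 (3.56% higher, 3.36% lower) and 3.09% for Keap1 minus Nrf2. The effect on Ccn1 was larger in Nrf1 CKO than in Keap1 KD by 0.96 (95% interval 0.24 to 1.68, limma adjusted p = 0.0896), which was not called. For Tgfb3 the same difference was 1.25 (adjusted p = 0.0676) and for Ltbp2 1.06 (adjusted p = 0.137). Between Keap1 KD and Nrf2 KO 0 of the 9 differed (0 at an unadjusted p under 0.05), and Ccn1 differed by 0.56 (95% interval −0.16 to 1.28). Of the genes called higher, 35 were so in both Nrf1 CKO and Keap1 KD, Ccn1 among them, which is 2.47% of the 1416 of Nrf1 CKO and 20.8% of the 168 of Keap1 KD. The 4 called differences rested on single arrays too: 0 were called without Nrf1 CKO 2 or without Nrf1 CKO 3, and 9 without Nrf1 CKO 1.

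Genes that store and release latent TGF-beta were measured beside the members in Nrf1 CKO livers. Of these, 5 of 13 were called higher and 0 lower, with a median log2 fold change of 0.47. Of all genes tested, 7.99% were called higher and 10.9% lower. With slide as a block 0 genes of any pathway list described here were called in Nrf1 CKO (limma), so that all list counts below depend on that setting. Fbn1, the fibrillin of the microfibrils that hold latent ligand, stood at −1.93, −1.14 and −1.10 in Nrf1 CKO against −2.99, −2.65 and −2.68 in Nrf1 Control (1.39, SE 0.28, limma adjusted p = 0.00543). Ltbp3, which anchors latent TGF-beta, was higher by 1.11 (SE 0.27), the proteoglycan gene Bgn by 1.06 (SE 0.27) and Emilin1, whose product restrains the processing of the TGF-beta precursor, by 1.04 (SE 0.26). Each of these had CKO arrays above all controls. The count was 1 of 13 without Nrf1 CKO 2 or Nrf1 CKO 3, and 3 without Nrf1 Control 1.

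Among coreceptors, SMADs and their regulators, 2 of 17 were called higher and 2 lower in Nrf1 CKO, with a median of 0.15, where 7.99% of all genes were called higher and 10.9% lower, which is near this list's share. The count called higher was 0 without Nrf1 CKO 2, Nrf1 CKO 3 or Nrf1 Control 1, and 1 without Nrf1 Control 2. Pmepa1, a target of the pathway that binds SMADs and limits them, stood at −3.00, −2.11 and −1.91 in Nrf1 CKO against −4.92, −3.77 and −3.24 in Nrf1 Control (1.64, SE 0.38, limma adjusted p = 0.00994). The other gene called higher was the inhibitory SMAD Smad7, at 2.18 (SE 0.63), whose groups overlapped and which is named with its value known. The ubiquitin ligase gene Wwp1 had a log2 fold change of −0.77 (SE 0.20) and the phosphatase gene Ppm1a, which acts on SMADs, one of −0.56 (SE 0.16). Of the activin, bone morphogenetic protein and growth differentiation factor genes, 3 of 24 were called higher and 1 lower, with a median of 0.02, again near the share of all genes (5 higher without Nrf1 CKO 1). Gdf10 was higher by 2.19 (SE 0.38), the stress-induced cytokine gene Gdf15 by 2.04 (SE 0.44) and Gdf2, a hepatic ligand of endothelial cells, by 0.77 (SE 0.16), while the activin receptor gene Acvr2b had a log2 fold change of −1.82 (SE 0.34).

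Genes reported to rise with TGF-beta signalling had 11 of 28 measured members called higher and 0 lower in Nrf1 CKO, with a median log2 fold change of 0.78. The shares of all genes tested were 7.99% higher and 10.9% lower. The type I collagen chain Col1a1 stood at 1.35, 2.85 and 2.33 in Nrf1 CKO against −0.62, 0.13 and 0.39 in Nrf1 Control (2.21, SE 0.48, limma adjusted p = 0.00717). Nrf1 CKO 1 was again the lowest CKO array, and all CKO arrays lay above all controls. The basement membrane collagen gene Col4a1 was higher by 1.48 (SE 0.30), the collagen cross-linking enzyme gene Loxl2 by 1.38 (SE 0.29) and Tagln, an actin-binding protein of smooth muscle and myofibroblasts, by 1.13 (SE 0.33). Of this list 6 genes also stand on the list of myofibroblast markers. The count was 4 of 28 without Nrf1 CKO 3, 5 without Nrf1 CKO 2 and 7 without Nrf1 Control 1.

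Genes reported to rise with YAP and TAZ had 7 of 22 called higher and 2 lower in Nrf1 CKO, with a median of 0.33. Among all genes tested, 7.99% were called higher and 10.9% lower. Birc5, an inhibitor of cell death that is also expressed in mitosis, was higher by 2.08 (SE 0.36), Ajuba by 1.32 (SE 0.32), Myof by 1.21 (SE 0.31) and Arhgef17 by 1.07 (SE 0.20), while the lower genes were Igfbp3 at −1.004 (SE 0.26) and Amotl2, a partner of YAP, at −0.82 (SE 0.20). The called genes of this list thus went in both directions. The count called higher was 2 without Nrf1 CKO 2 or Nrf1 CKO 3 and 3 without Nrf1 Control 1. Of the remaining CCN genes only Ccn4 passed the background filter, at 1.13 (limma adjusted p = 0.057) with overlapping groups, and the probes of Ccn3 and Ccn6 were not well above background on any array.

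In Nrf2 KO and in Keap1 KD, 0 genes of these lists were called (limma). At an unadjusted p under 0.05 there were 5 in Nrf2 KO and 12 in Keap1 KD among the 105 list genes measured. The medians in Nrf2 KO and Keap1 KD were −0.03 and −0.07 for the TGF-beta target list and 0.03 and 0.22 for the YAP and TAZ target list, beside medians over all genes of 0.0079 and 9e-04. The YAP and TAZ list had 19 of 22 log2 fold changes above 0 in Keap1 KD, where Ccn1 was the 1 member called.

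**Figure D4:**
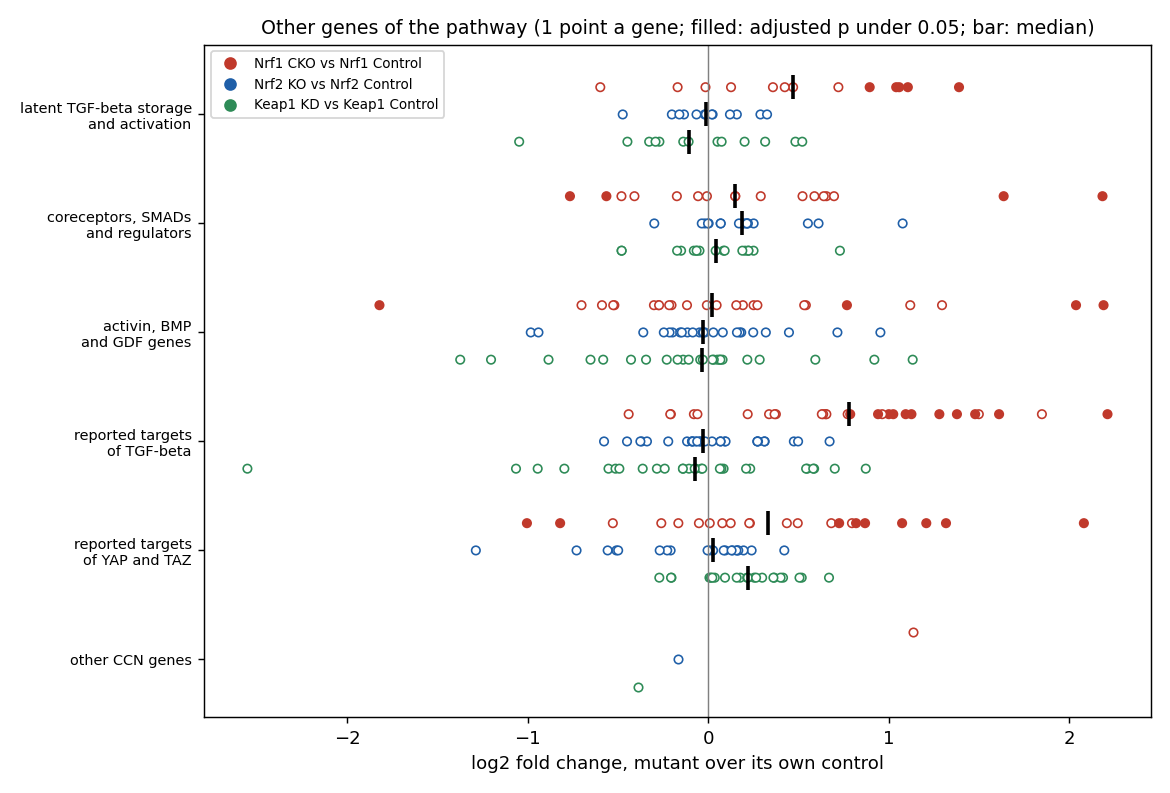
Log2 fold change (x axis) of every measured gene of 6 pathway lists, in each mutant over its own control; 1 point a gene, filled where the adjusted p was under 0.05, with a bar at the list's median. Filled points occur in Nrf1 CKO alone, where 11 of 28 reported TGF-beta targets are filled and 23 of 28 lie to the right of 0.

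Markers of other cell types moved with the members in Nrf1 CKO livers, where 7.99% of all genes tested were called higher and 10.9% lower. Of the stellate cell markers, 10 of 16 were called higher and 0 lower, with a median log2 fold change of 0.88. Their summed signal, in multiples of the 75th percentile, was 207 to 235 on the CKO arrays against 146 to 216 on the control arrays, so that the sums overlapped. All 16 were well above background on all 18 arrays. Of the myofibroblast and portal fibroblast markers, 6 of 14 were called higher, and the sum was 72.7 to 147 in CKO against 54.6 to 71.3 in control. Of the macrophage and Kupffer cell markers, 5 of 16 were called higher, and the sum was 244 to 483 in CKO against 139.8 to 249.02 in control. Of the hepatocyte markers, 5 of 12 were called lower and 0 higher, and the sum was 1741 to 2348 in CKO against 2683 to 3256 in control. With slide as a block 0 stellate cell, 0 myofibroblast and 0 hepatocyte markers were called (limma), and 2 macrophage markers higher. The macrophage count was 2 without Nrf1 CKO 2, Nrf1 CKO 3, Nrf1 Control 1 or Nrf1 Control 3, the myofibroblast count 3 without Nrf1 CKO 3, and the hepatocyte count 1 without Nrf1 CKO 3 and 3 without Nrf1 CKO 2, Nrf1 Control 1 or Nrf1 Control 2. The part of these shifts in the members' changes was not tested.

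For the other lists the sums are given for the Nrf1 CKO arrays against the Nrf1 Control arrays, and the counts stand beside the same shares of all genes. Of the sinusoidal endothelial markers, 0 of 14 were called higher and 1, Lyve1, lower, with a sum of 66 to 88.2 against 82.8 to 96.1. The cholangiocyte list had 0 of 8 called (limma), with a sum of 16.7 to 44.9 against 13.7 to 20.6, and the platelet list 0 of 6, with a sum of 2.05 to 2.93 against 1.35 to 2.09. The lymphocyte list had 1 of 11 called higher, with a sum of 4.08 to 7.05 against 3.35 to 6.51, and the mesothelial list 1 of 6 (the keratin gene Krt8), with a sum of 119 to 257 against 68.8 to 97.7 and a median log2 fold change of −0.43. In Keap1 KD, 5 markers were called, 3 higher (Trem2, Col15a1 and Lyve1) and 2 lower (Lum and Lrrn4). These were among 102 marker genes measured, where 0.948% of all genes were called higher and 4.58% lower. In Nrf2 KO 0 were called (limma; 4 at an unadjusted p under 0.05). Krt8, Lyve1, Trem2, Col15a1, Lum and Lrrn4 are named with their values known.

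**Figure D5:**
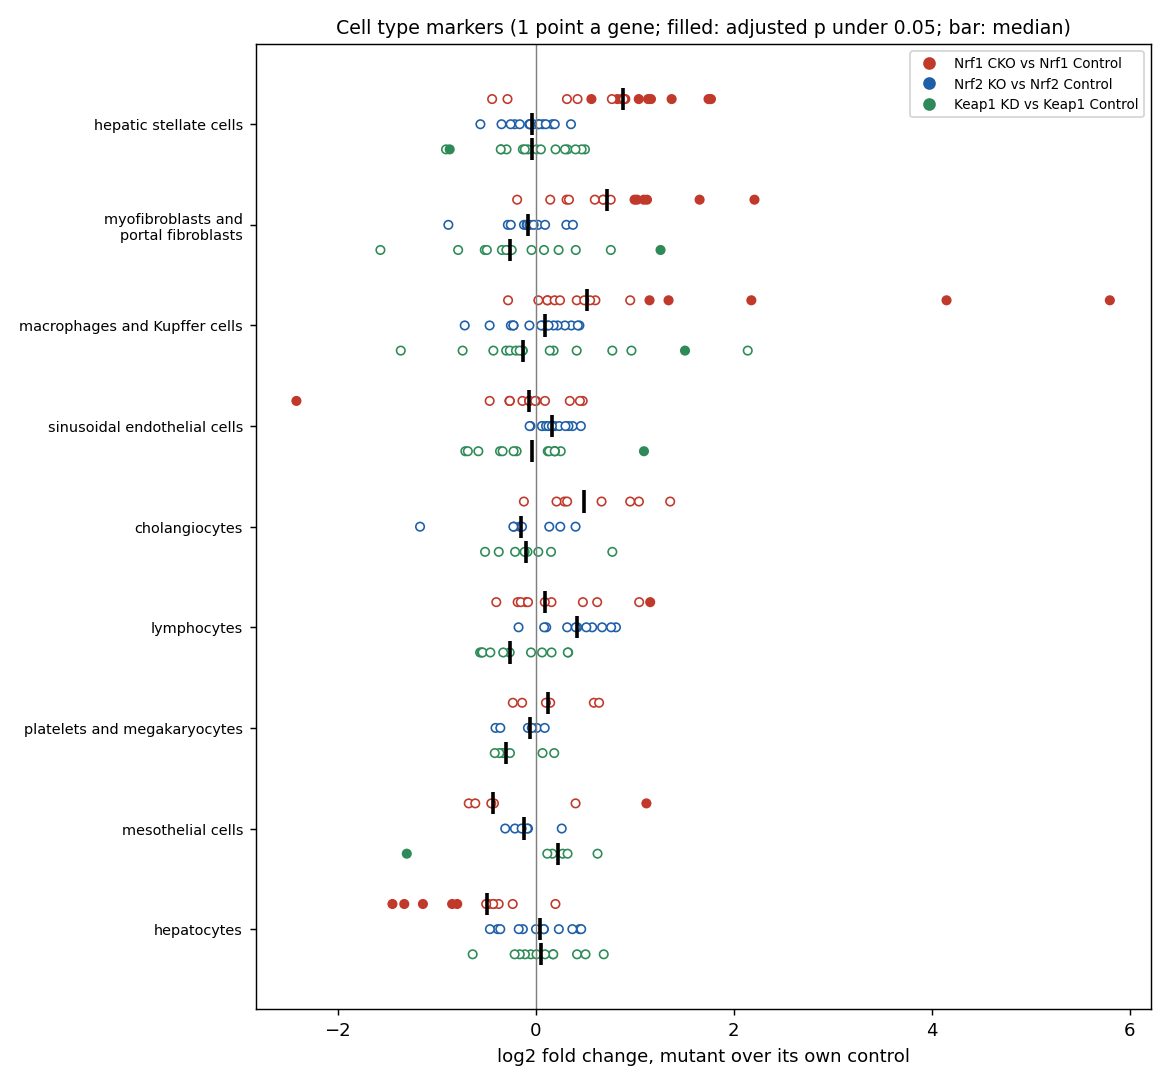
Log2 fold change (x axis) of the markers of 9 cell types in each mutant over its own control; 1 point a gene, filled where the adjusted p was under 0.05, with a bar at the list's median. In Nrf1 CKO the medians of the stellate cell and myofibroblast markers are 0.88 and 0.72 and that of the hepatocyte markers is −0.49.

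Across the 18 arrays, which share the groups and so are no independent points, correlations between members describe the arrays only. For members called higher on the same 3 Nrf1 CKO arrays a high r is in part set by those calls, and Ccn5 was well above background on 8 of the 18 arrays. Pearson's r was 0.84 between Ccn5 and Ltbp2, 0.83 between Ccn1 and Ccn5, 0.83 between Ltbp2 and Tgfbr2 and 0.82 between Ccn5 and Tgfbr2, while it was 0.77 between Ccn1 and Tgfbr2 and 0.66 between Ccn1 and Ltbp2. Tgfb3 had an r of 0.16 with Ccn1, 0.36 with Tgfbr2, 0.55 with Ccn5 and 0.57 with Ltbp2. The highest r of any pair, 0.87, was that of Tgfb1 with Ltbp2, and Tgfbr1 with Tgfb1 had −0.18. Of all genes with a symbol, those nearest in pattern to Ccn5 were Olfml3 (r = 0.96), Epdr1 (0.95) and Spats2l (0.94). Nearest to Ccn1 were Cpne8 (0.92), the macrophage and microglia receptor gene Trem2 (0.91) and the desmosomal plakophilin gene Pkp1 (0.91). Trem2 was called higher in both Nrf1 CKO and Keap1 KD, as was Ccn1.

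The genes nearest to Tgfbr2 were the growth factor gene Pdgfa (0.93), Mettl15 (0.92) and Ank3 (0.92), and nearest to Ltbp2 were the procollagen peptidase gene Adamts2 (0.93), Kcnj10 (0.93) and Ephb3 (0.93). Tgfb1 went with Ifi30, Mapk7 and Plvap (0.93 each), Tgfb2 with Zeb2 (0.91), Tpm4 (0.85) and Ltbp3 (0.85), and Tgfb3 with Cavin3 (0.88), Slc25a4 (0.87) and Zfp618 (0.84). Ccn2 went with Rpap3 (0.93), Setd7 (0.90) and Olfr656 (0.90). For Setd7 the lowest of the 6 Nrf1 line arrays was at 0.12 and the highest of the other 12 at −0.05, while for Rpap3 the lowest was at 0.73 against a highest of 0.65. The nearest to Tgfbr1 were Prom1 (0.84), Pcdhb17 (0.83) and Itgb1 (0.79).

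The order of the groups differed between members. Ccn1 ran from Nrf1 CKO (mean 1.29) over Keap1 KD (−0.24), Nrf1 Control (−0.65), Nrf2 KO (−1.06) and Keap1 Control (−1.22) to Nrf2 Control (−1.48). In this order Nrf1 CKO lay apart from Keap1 KD and Keap1 Control from Nrf2 Control, and the other neighbours overlapped. Ltbp2, Tgfbr2 and Ccn5 had Nrf1 CKO apart from the next group, at means of −0.30 against −1.33 (Nrf2 KO), 2.98 against 2.05 (Nrf2 Control) and −0.20 against −4.38 (Nrf2 KO), and all neighbours below overlapped. For Ltbp2 the lowest Nrf1 CKO array also lay within the range of Nrf2 Control. For Tgfb3, Nrf1 CKO (−0.60), Nrf2 KO (−0.66) and Nrf2 Control (−0.82) came first and Nrf1 Control (−1.54) last, and all neighbours overlapped, as they did for Tgfb1, Tgfb2 and Tgfbr1. Tgfb3 in Nrf1 CKO thus lay at the level of both Nrf2 groups and above its own control.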

How the data were processed

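Whole liver RNA was measured on single-colour Agilent mouse arrays; per the labels' protocols, total RNA extracted with Isogen was amplified and labelled with Cy3 using the Quick Amp Labeling kit. The deposited intensity values are the processed signal of Agilent Feature Extraction 10.7.3.1, per the file headers, which had corrected background. The deposited files also hold other columns of flags for spots well above background, saturated spots and outliers. The authors' series table equals the processed signal on a linear intensity scale, uncentred, at all 810324 entries (relative tolerance 1e-06), with column medians of 13.0 to 34.12. Columns of other samples number 0.

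Control spots and outlier spots were left out, spots of a probe were averaged, and log2 signal minus the log2 of the array's 75th percentile was taken, from the deposited intensities. Probes were named through RefSeq accessions (26690) or symbols and synonyms (28), and 26718 of 41174 probes had a symbol. A probe was kept if 1 or more of the groups had it well above background on every array (23554 probes), and the brightest probe per gene was tested (17721 genes, 12874 with a symbol). limma 3.58.1 in R 4.3.3 fitted 6 group means over 18 arrays, with 12 residual and 3.07 prior degrees of freedom and a median SE of 0.24 for a log2 fold change. P-values were adjusted by the Benjamini-Hochberg method over all genes, with a threshold of 0.05. The fit was tested on simulated data.

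The members and gene lists were chosen with earlier results of these data known. From each list, the text names up to 4 genes per direction and comparison with the largest change among those called whose groups did not overlap, and for each member the 3 genes with the highest Pearson's r over the 18 arrays. Alternatives covered scaling, background correction, filters, probe choice, slide, scan day, replicate number and left-out arrays. No genome or protein sequences were used here, so that promoters are the only sequences shown, and gene positions are not given on the array's own build.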

Additional observations from a re-analysis of the deposited data

Results flagged for a closer look

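Of the 27 differences between lines, 4 passed the test of the difference itself, and each is given here because the effects of 2 mutants differed. The effect on Ccn5 was larger in Nrf1 CKO than in Keap1 KD by 5.04 (SE 1.12, limma adjusted p = 0.0215), and larger than in Nrf2 KO by 4.21 (SE 1.12, adjusted p = 0.0412). Ccn5 was well above background on all 3 Nrf1 CKO arrays, on 2 of 3 Nrf2 KO arrays, on 2 of 3 Keap1 KD arrays, and on 1 Keap1 Control array and no other control array, so that these sizes rest on values below background. Ccn5 entered the test through Nrf1 CKO alone. The effect on Ccn1 was larger in Nrf1 CKO than in Nrf2 KO by 1.51 (SE 0.34, limma adjusted p = 0.021). For Tgfbr2 the same difference was 1.23 (SE 0.34, limma adjusted p = 0.048), with effects of 0.98 in Nrf1 CKO and −0.25 in Nrf2 KO. None of the 4 was called without Nrf1 CKO 2, without Nrf1 CKO 3, or with slide or scan day as a block.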

How the results depend on the processing

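Of 516 member values under alternatives, 459 kept their direction and side of the threshold, 30 lost a call, 2 gained one and 25 turned direction, none of these with a call. Most of the 516 were never called, so only the called results could lose a call. In Nrf1 CKO, processing alternatives lost Ccn1 in 1 of 13, Ccn5 in 1 of 12, Tgfbr2 in 1 of 13, Ltbp2 in 2 of 13 and Tgfb3 in 4 of 13. Leaving out 1 array lost them in 0, 0, 2, 3 and 4 of 6. Ccn1 in Keap1 KD was lost in 7 of 14 and 5 of 6. Beside 5 members called in Nrf1 CKO, 0 in Nrf2 KO, 1 in Keap1 KD and 4 differences between lines, quantile normalization, the series table, the mean of a gene's probes, an intensity trend and slide as a random block gave the same counts. The series table holds the same signals, and no member has a second probe that passed the filter, so these settings could hardly differ for the members. The random slide block had a correlation of −0.016 and so changed the fit little. Array median scaling left 2 differences and 4 members in Nrf1 CKO. A filter for signal above background on all arrays took Ccn5 and Tgfb2 out of the test, so its counts cannot include Ccn5. Both Ccn5 differences thus dropped out. The differences of Ccn1 (limma adjusted p = 0.0144) and Tgfbr2 (adjusted p = 0.036) between Nrf1 CKO and Nrf2 KO stayed called. With arrays of the compared lines only, 3 members were called in Nrf1 CKO, 0 in Keap1 KD and 2 differences. Without a filter there were 0 in Keap1 KD and 1 difference, with normexp (run on median signals) 0 in Keap1 KD and 3 differences (both for Ccn5 lost, Ccn1 between Nrf1 CKO and Keap1 KD gained at an adjusted p of 0.0478), and with scan date as a block 0 in Keap1 KD and 0 differences. The slide block left 0 in Nrf1 CKO, 0 in Keap1 KD and 0 differences. The fit with a replicate block called 6 in Nrf1 CKO, 0 in Keap1 KD and 2 differences; the replicate numbers do not pair the samples, with deviation correlations from −0.36 to 0.15. Leaving out 1 array gave 2 to 6 members in Nrf1 CKO, 0 to 0 in Nrf2 KO, 0 to 1 in Keap1 KD and 0 to 9 differences (1 without Nrf1 Control 1 or Nrf2 Control 3). Leaving out the Keap1 arrays with most and fewest spots above background gave 0 in Keap1 KD; this, the random slide block and the bounds of Ccn5 with an array left out were chosen after seeing the data.

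Directions turned for uncalled values, and the cause was not tested. Under median scaling, Ccn2 in Nrf1 CKO was −0.0709, and in Keap1 KD Tgfb3 was 0.0025 and Tgfbr1 0.25; this scaling moved the median of all genes to −0.19 in Nrf1 CKO, −0.05 in Nrf2 KO and 0.31 in Keap1 KD. With the slide block Tgfbr1 (−0.23) and Ccn2 (−0.21) turned in Nrf1 CKO, and Tgfb3 (−0.52) and Tgfbr2 (0.38) in Nrf2 KO; with scan date as a block the Nrf2 KO values were −0.34 and 0.31. Without the 2 Keap1 arrays Tgfb1 was −0.16 and Tgfbr1 0.41. Leaving out 1 array gave for Ccn2 −0.26 to 0.19 in Nrf1 CKO; for Tgfbr1 −0.28 to 0.0595, Ltbp2 −0.14 to 0.21 in Nrf2 KO; for Ccn5 −0.33 to 0.57, Tgfb3 −0.51 to 0.0182, Tgfb1 −0.21 to 0.19, Tgfbr1 −0.38 to 0.33, Ccn2 −0.0051 to 0.42 in Keap1 KD. Over all genes, calls in Nrf1 CKO were 3348, against 65 with the slide block, 2117 without a filter, 1216 without Nrf1 Control 1, 1181 without Nrf1 CKO 2, 939 without Nrf1 CKO 3 and 4160 without Nrf1 CKO 1. In Keap1 KD there were 979, against 52 with the line's arrays only, 55 with the slide block and 255 with scan date as a block. Signal near background limits Ccn5 and Tgfb2.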
